A study of Homo sapiens with 12 samples.

Results

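Transcripts of 8 genes that encode laminin receptors or parts of them were followed in breast cancer cells cultured in synthetic matrices that mimic collagen or laminin. The 8 genes (ITGA3, ITGA6, ITGA7, ITGB4, DAG1, BCAM, CD151 and RPSA) were chosen by name from 23368 distinct gene symbols in the deposited count table, by a rule that uses no measured value but was written with earlier results of these data known, and each has 1 entry there. MDA-MB-231 (ER-) and T47D (ER+) are established lines derived from pleural effusions of patients with breast cancer. Single cells of either line were encapsulated in a poly(ethylene glycol) hydrogel closed by a crosslinker that cells can degrade, which carried either GFOGER, a peptide that mimics collagen, or IKVAV, a peptide that mimics laminin, and were cultured for 3 days. RNA from 3 pooled gels made up each replicate, and stranded poly-A libraries were sequenced. The 4 conditions held 3 libraries of MDA-MB-231 cells in GFOGER, 2 of MDA-MB-231 cells in IKVAV, 3 of T47D cells in GFOGER and 3 of T47D cells in IKVAV; 1 more replicate of MDA-MB-231 cells in IKVAV was not analysed here. Every cell was in a gel, so no condition without a matrix or without a peptide was available as a reference, and each line stands for 1 cell population. Nothing in the labels says whether replicates came from separate cultures, so p-values measure the spread between these libraries, which may be partly technical.

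Laminins are trimers of an α, a β and a γ chain that form the scaffold of basement membranes. Cells bind them through integrins, which are pairs of an α and a β subunit: the α3, α6 and α7 subunits pair with β1, and α6 pairs with β4 in hemidesmosomes, the junctions that fix epithelial cells to the basement membrane through keratin filaments. Dystroglycan, the Lutheran antigen BCAM and the 67-kDa laminin receptor, whose precursor is encoded by the ribosomal protein gene RPSA, also bind laminin, and the tetraspanin CD151 holds laminin-binding integrins in membrane complexes. In mammary epithelium these receptors anchor cells to the basement membrane and carry signals for polarity and survival, and IKVAV is a stretch of the laminin α1 chain.

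Positions are given for hg19. ITGA3 is at chr17:48133340-48167849, ITGA6 at chr2:173292314-173371181, ITGA7 at chr12:56078354-56106089, ITGB4 at chr17:73717516-73753899, DAG1 at chr3:49506136-49573051, BCAM at chr19:45312338-45324678, CD151 at chr11:832952-838835 and RPSA at chr3:39448204-39454032. Counts per library ranged from 665 to 22658 for ITGA3, from 1324 to 16757 for ITGA6, from 2993 to 5654 for ITGB4, from 7431 to 13712 for DAG1, from 240 to 3443 for BCAM, from 1636 to 4159 for CD151 and from 852 to 1807 for RPSA, whereas ITGA7 had only 10 to 37. All 8 members passed the filter on low counts in both cell lines. The values of ITGA7 and RPSA are less certain. ITGA7 shares 41 bases with METTL7B, which had 2 to 67 counts. RPSA has 74 pseudogenes named RPSAP in RefSeq, of which 3 were in the count table; the most abundant of these, RPSAP58, had 217 to 633 counts, and reads that fit several copies may have been lost or divided in the counting. RPSA also holds the small RNA genes SNORA6 (9 to 23 counts) and SNORA62 (14 to 37 counts).

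Promoter sequences from RefSeq (table of GRCh38.p14) were found for 4 of the 8 members, ITGA6, DAG1, BCAM and RPSA, and each matched hg19 at 1 place on its chromosome. The 3 genes below are shown because their difference between the matrices itself differed between the cell lines. The longest run that lies in no annotated exon, within the 250 bases before the transcript start, is printed 5′ to 3′ on the + strand. Exon-free bases outside that run, as in ITGA6, were neither printed nor searched. Capitals mark the GC box GGGCGG or the CCAAT box CCAAT on either strand, where adjoining boxes may share a base.
ITGA6, chr2:173292199-173292313, bases 115 to 1 before the start: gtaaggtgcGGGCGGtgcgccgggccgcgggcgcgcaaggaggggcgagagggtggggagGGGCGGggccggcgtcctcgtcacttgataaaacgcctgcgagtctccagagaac
BCAM, chr19:45312066-45312315, bases 250 to 1 before the start: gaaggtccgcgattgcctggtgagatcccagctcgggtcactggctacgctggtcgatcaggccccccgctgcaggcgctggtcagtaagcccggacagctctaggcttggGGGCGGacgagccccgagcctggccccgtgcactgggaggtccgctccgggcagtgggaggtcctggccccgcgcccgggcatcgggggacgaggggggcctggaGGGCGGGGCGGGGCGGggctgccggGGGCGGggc
RPSA, chr3:39447961-39448206, bases 250 to 5 before the start: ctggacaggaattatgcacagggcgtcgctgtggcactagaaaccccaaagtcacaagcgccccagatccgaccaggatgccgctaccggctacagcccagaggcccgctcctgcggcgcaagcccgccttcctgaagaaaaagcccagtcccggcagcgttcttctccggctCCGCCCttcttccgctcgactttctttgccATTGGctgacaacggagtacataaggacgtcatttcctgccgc
The stretch of ITGA6 held 2 GC boxes, that of BCAM 5, of which 3 overlapped in 1 run, and that of RPSA held 1 GC box and 1 CCAAT box. A GC box was present in 33.4% of the 35116 promoters in the table over the window of ITGA6, in 42.6% over that of BCAM and in 42.2% over that of RPSA, and a CCAAT box in 31.8% over the last of these. None of the 3 stretches held the AP-1 site TGANTCA, which was present in 6.57% of promoters over the window of BCAM. The TEAD site GGAATG was absent from all 3 as well, and was found in 11.9% of promoters over that window. The same held for the E-box CACGTG, found in 6.34%. The TATA box TATAAA, found in 10.7%, was not in these windows either. All were searched on both strands. These matches describe the letters of the sequence only.

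Reads counted on genes ranged from 14337035 to 18449108 per library, so that 3 counts corresponded to 0.163 to 0.209 cpm, the usual unit of read counts scaled to library size. The cell line labels were checked with marker genes. The summed level of 9 luminal markers was 516 to 630.1 cpm in the 5 MDA-MB-231 libraries and 6818 to 7946 cpm in the 6 T47D libraries, and that of 8 mesenchymal-like markers was 4489 to 7119 cpm and 118 to 134 cpm, respectively. By edgeR's adjusted p all 9 luminal markers were lower in MDA-MB-231 cells in both matrices, and 7 of 8 mesenchymal-like markers were higher. SPARC was the exception, with log2 fold changes of MDA-MB-231 over T47D cells of -0.22 in GFOGER and -2.39 in IKVAV. MDA-MB-231 GFOGER replicate 3 and T47D IKVAV replicate 3 stood apart from the other libraries of their conditions, with count differences of 16.4 to 18.6 and 16.9 to 17.9 times sampling noise, against 2.51 to 9.92 for other pairs. Among the laminin receptors, MDA-MB-231 GFOGER replicate 3 had the highest level of its group for ITGA3, ITGB4, DAG1, BCAM and CD151 and the lowest for ITGA6.

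In MDA-MB-231 cells the 8 receptor transcripts did not move together between the matrices. ITGA6 was 2.27-fold higher and RPSA 1.58-fold higher in GFOGER than in IKVAV, whereas BCAM was 2.04-fold, ITGB4 1.37-fold, CD151 1.31-fold and DAG1 1.29-fold lower in GFOGER. ITGA3 and ITGA7 did not pass the test, although ITGA3 did with no filter on low counts (log2 fold change 0.20, adjusted p = 0.0459). With edgeR's quasi-likelihood test and Benjamini-Hochberg adjustment over the 14090 genes tested, a gene was called when its adjusted p was below 0.05 and its change was more than 2-fold. ITGA6 and BCAM were called, 2 of 8 members, against 9.57% of all genes tested. Without the limit on fold change 6 of 8 members passed, 2 higher and 4 lower in GFOGER, against 42.8% of all genes. In 64.3% of 13139 genes with a mean of at least 1 cpm the libraries of the 2 matrices did not overlap at all, and the same held for 6 of the 8 members, a share near that background. The members' median log2 fold change was -0.38, beside 0.0039 over all genes tested. In bulk RNA, fewer cells with a transcript and less transcript per cell cannot be told apart. The summed level of the 8 mesenchymal-like markers also differed between the matrices in this line. It was 6771 to 7119 cpm in GFOGER and 4489 to 4566 cpm in IKVAV, with 7 of 8 above 10 cpm in both. The markers did not all go 1 way: by adjusted p 6 were higher in GFOGER, ZEB1 was lower (-0.40) and LOX did not pass. The backgrounds were 21.4% higher and 21.4% lower. The part of these markers in the receptor differences was not tested.

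**Figure D1:**
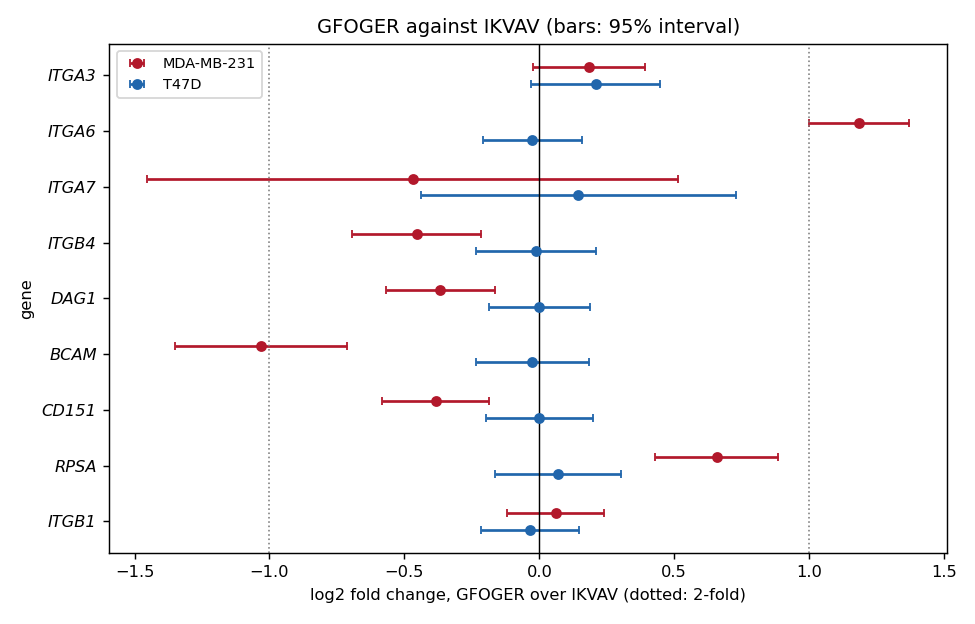
Log2 fold change of GFOGER over IKVAV (horizontal axis) for each laminin receptor and for ITGB1 in MDA-MB-231 cells (red) and T47D cells (blue), with 95% intervals from edgeR. In MDA-MB-231 cells ITGA6 (1.19) and BCAM (-1.03) lie furthest from 0 in opposite directions, whereas all T47D intervals include 0.

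ITGA6 encodes the α6 integrin subunit, which pairs with β1 or β4. In MDA-MB-231 cells its level was 958, 1002 and 876 cpm in GFOGER and 421 and 406 cpm in IKVAV. Every GFOGER library was thus above both IKVAV libraries by a wide gap, although replicate 3 was the lowest of the 3. The log2 fold change was 1.19 ± 0.088 (SE, 95% interval 1.00 to 1.37; adjusted p = 2.44e-08). In T47D cells the level was 81.4, 82.8 and 91.9 cpm in GFOGER and 89.8, 81.9 and 89.2 cpm in IKVAV. These 2 groups overlapped, and the log2 fold change of -0.026 had an interval of -0.21 to 0.16 (adjusted p = 0.943), which excludes a change of the size observed in MDA-MB-231 cells.

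ITGB4, the β4 subunit that joins α6 in hemidesmosomes, differed in the opposite direction in MDA-MB-231 cells. It measured 229.8, 215 and 302 cpm in GFOGER and 337 and 341 cpm in IKVAV, so the groups did not overlap but GFOGER replicate 3 came near the IKVAV libraries. The log2 fold change was -0.46 ± 0.11 (SE; adjusted p = 0.00396), and without IKVAV replicate 2 the adjusted p was 0.0562. In T47D cells ITGB4 measured 183, 221 and 171 cpm in GFOGER and 215, 183 and 183 cpm in IKVAV, and the interval of the log2 fold change was -0.24 to 0.21. ITGB1, the β1 subunit shared by α3, α6 and α7, was not a member but was followed as their partner. It measured 1809, 1850.3 and 1558 cpm in GFOGER and 1679.7 and 1640.1 cpm in IKVAV in MDA-MB-231 cells. These overlapped, with a log2 fold change of 0.061 (95% interval -0.12 to 0.24; adjusted p = 0.597). Without GFOGER replicate 3, which was the lowest library, it was 0.14 (adjusted p = 0.000328).

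The ratios among the integrin subunits differed between the matrices in MDA-MB-231 cells. They were taken on levels per length (reads relative to gene length and library size, RPKM, scaled as the cpm values were). The ratio of ITGA6 to ITGB4 was 4.36, 4.88 and 3.03 in GFOGER and 1.31 and 1.25 in IKVAV, that is, 4.09 ± 0.952 (SD, n = 3) and 1.28 ± 0.0417 (SD, n = 2). In T47D cells the same ratio was 0.472 ± 0.0850 in GFOGER and 0.471 ± 0.0367 in IKVAV (SD, n = 3 each), so ITGB4 exceeded ITGA6 there in both matrices. The ratio of ITGA6 to ITGA3 was 0.812, 0.858 and 0.587 in GFOGER and 0.358 and 0.382 in IKVAV in MDA-MB-231 cells, where ITGA3 was the larger in every library. In T47D cells it was 1.45 ± 0.214 in GFOGER and 1.71 ± 0.169 in IKVAV (SD, n = 3 each), and ITGA6 was the larger in every library.

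**Figure D2:**
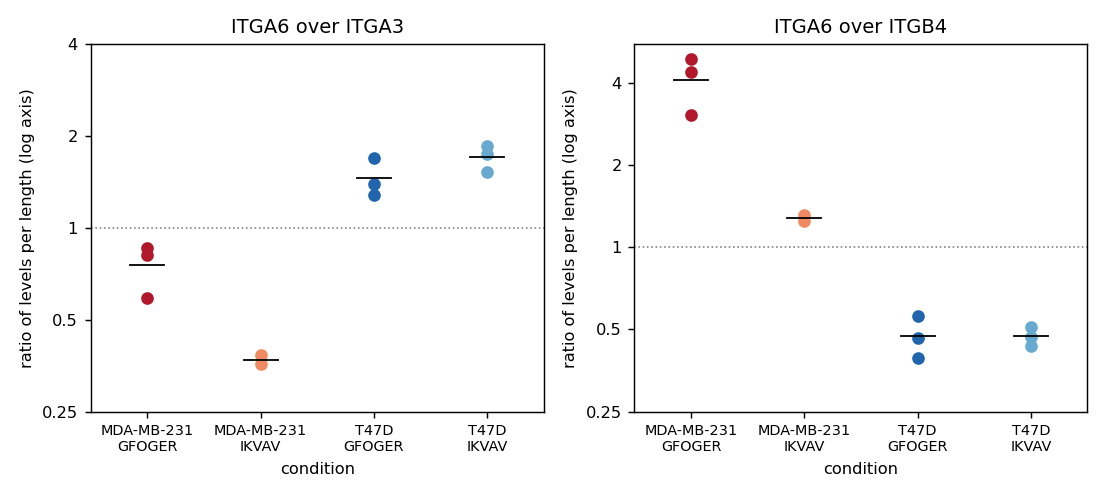
Ratio of ITGA6 to ITGA3 (left) and of ITGA6 to ITGB4 (right) per library, on levels per length and a log axis, with a bar at the mean of each condition and a dotted line at 1. Both ratios were higher in GFOGER than in IKVAV in every MDA-MB-231 library, and the ratio to ITGB4 was below 1 in all T47D libraries.

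ITGA3, the α3 subunit of a receptor for laminin-332 and laminin-511, was abundant in MDA-MB-231 cells in both matrices, with 1020.4, 1010.2 and 1291 cpm in GFOGER and 1018 and 921 cpm in IKVAV. The groups overlapped and the log2 fold change of 0.18 had an interval of -0.024 to 0.39 (adjusted p = 0.144). In T47D cells ITGA3 measured 50.5, 56.1 and 46.99 cpm in GFOGER and 50.9, 40.6 and 41.6 cpm in IKVAV. These also overlapped, and the log2 fold change was 0.21, with an interval of -0.029 to 0.45 (adjusted p = 0.502). ITGA7, the α7 subunit best known from skeletal muscle, was near the limit of detection. In MDA-MB-231 cells it measured 0.572, 0.804 and 0.741 cpm in GFOGER and 1.17 and 0.784 cpm in IKVAV, and in T47D cells 2.09, 2.20 and 1.54 cpm in GFOGER and 2.03, 1.71 and 1.54 cpm in IKVAV. Its log2 fold changes of -0.47 and 0.14 had intervals of -1.45 to 0.51 and -0.44 to 0.73. On these few counts a level 2-fold lower in GFOGER was thus not excluded in MDA-MB-231 cells.

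BCAM, an immunoglobulin superfamily protein that binds the laminin α5 chain, was called lower in GFOGER in MDA-MB-231 cells. It measured 16.0, 14.8 and 21.3 cpm in GFOGER and 32.4 and 38.1 cpm in IKVAV, and the groups did not overlap. The log2 fold change was -1.03 ± 0.15 (SE, 95% interval -1.35 to -0.71; adjusted p = 4.75e-05). This is close to the 2-fold limit, and without GFOGER replicate 1, GFOGER replicate 2 or IKVAV replicate 2 it was -0.97, -0.94 and -0.91, so that ITGA6 alone was called in those fits. In T47D cells BCAM measured 183, 205 and 167 cpm in GFOGER and 211, 183 and 172 cpm in IKVAV. The groups overlapped and the interval of the log2 fold change was -0.24 to 0.18.

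DAG1 encodes dystroglycan, whose sugar chains bind laminin. In MDA-MB-231 cells it measured 460.2, 459 and 578 cpm in GFOGER and 647 and 633 cpm in IKVAV. The tetraspanin gene CD151 measured 186, 179 and 217 cpm in GFOGER and 252 and 250.9 cpm in IKVAV. For both genes every GFOGER library was below both IKVAV libraries, with GFOGER replicate 3 nearest to them. The log2 fold changes were -0.37 ± 0.096 (SE; adjusted p = 0.00537) and -0.38 ± 0.094 (SE; adjusted p = 0.00353). Without IKVAV replicate 1 the adjusted p was 0.0742 for DAG1 and 0.0556 for CD151, and without IKVAV replicate 2 it was 0.0594 and 0.0568. In T47D cells DAG1 measured 754, 816 and 718 cpm in GFOGER and 843, 754 and 694 cpm in IKVAV. CD151 measured 113, 123 and 99.0 cpm in GFOGER and 111, 107 and 118 cpm in IKVAV. Both overlapped, with log2 fold changes between -0.19 and 0.19 for DAG1 and between -0.20 and 0.20 for CD151 by their 95% intervals.

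RPSA, a component of the small ribosomal subunit as well as the laminin receptor precursor, measured 82.7, 90.4 and 86.3 cpm in GFOGER and 57.7 and 51.4 cpm in IKVAV in MDA-MB-231 cells. The groups did not overlap, and the log2 fold change was 0.66 ± 0.11 (SE; adjusted p = 0.000137). Of 30 other small subunit ribosomal protein genes tested, 22 were higher in GFOGER by the adjusted p and none was lower (background 21.4% higher and 21.4% lower), with a median log2 fold change of 0.44, and the 2 past 2-fold were RPS27A (1.95) and RPS7 (1.05). Set against the summed level of the other small subunit genes, without RPSA, RPSA was at 1.505% ± 0.102 (SD, n = 3) in GFOGER. In IKVAV it was at 1.26% ± 0.0838 (SD, n = 2), and the ranges were 1.39% to 1.59% and 1.20% to 1.32%. That summed level was itself higher in GFOGER, at 5758 ± 295 cpm against 4326 ± 66.2 cpm, and its part in the RPSA difference was not tested. In T47D cells RPSA measured 99.2, 97.6 and 87.1 cpm in GFOGER and 82.0, 81.5 and 107 cpm in IKVAV. IKVAV replicate 3 was the highest of the 6 libraries, and it was also the highest for the summed ribosomal protein genes of the small subunit, at 7780 cpm against 6822 to 7283 cpm in the others.

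In T47D cells none of the 8 members passed the test, with or without the limit on fold change. In this comparison 0.022% of 13639 genes were called (3 genes), 0.044% passed by adjusted p alone (6 genes) and 1532 genes had an unadjusted p below 0.05. DESeq2 called 6 genes in this comparison, and leaving out IKVAV replicate 3 raised the count of edgeR to 94. The members' log2 fold changes ran from -0.027 (BCAM) to 0.21 (ITGA3), with a median of -0.00056 beside -0.0010 over all genes. Libraries overlapped for all 8 members, where 16.2% of 12965 genes did not overlap.

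A test of the interaction asked whether the difference between matrices itself differed between the lines, in 1 fit of the 4 conditions with 15310 genes. For ITGA6 the log2 fold change of GFOGER over IKVAV was 1.22 ± 0.12 higher in MDA-MB-231 cells (SE; adjusted p = 7.71e-07). For BCAM it was -0.99 ± 0.18 (SE; adjusted p = 0.000732), just inside 2-fold. RPSA gave 0.60 ± 0.16 (SE; adjusted p = 0.0110), and 0.50 (adjusted p = 0.103) without MDA-MB-231 IKVAV replicate 2. Of the 8 members 1, ITGA6, was called, against 6.43% of all genes tested (2.25% with a higher and 4.18% with a lower fold change in MDA-MB-231 cells). By adjusted p alone 3 of 8 passed, 2 higher and 1 lower, against 21.1% (10.9% and 10.2%). CD151 (-0.38, adjusted p = 0.0584), DAG1 (-0.36, adjusted p = 0.0741) and ITGB4 (-0.43, adjusted p = 0.0807) missed the threshold. Without MDA-MB-231 GFOGER replicate 3 these 3 values were -0.47, -0.48 and -0.60 and passed, with adjusted p of 0.0101, 0.00470 and 0.00355. ITGA3 (-0.016, 95% interval -0.35 to 0.31) and ITGA7 (-0.61, -1.65 to 0.44) did not pass. Beside RPSA, 19 of 30 other small subunit ribosomal protein genes tested passed by adjusted p with a higher value and 0 with a lower one. Their median was 0.49, and their part in the RPSA value was not tested.

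The order of the receptors differed between the cell lines. Per length, ITGA3 led in MDA-MB-231 cells in both matrices (220.3 ± 31.7 RPKM in GFOGER and 193 ± 13.7 in IKVAV). In GFOGER it was followed by ITGA6 (163 ± 10.97), CD151 (125 ± 13.0), DAG1 (75.7 ± 10.3), RPSA (75.4 ± 3.33), ITGB4 (41.0 ± 7.70), BCAM (5.67 ± 1.12) and ITGA7 (0.160 ± 0.0272), all as mean RPKM ± SD over 3 libraries. DAG1 and RPSA were the only neighbours in this order whose libraries overlapped. In IKVAV the order over 2 libraries was ITGA3, CD151 (162 ± 0.695), DAG1 (97.0 ± 1.49), ITGA6 (71.2 ± 1.78), ITGB4 (55.8 ± 0.426), RPSA (47.6 ± 3.89), BCAM (11.5 ± 1.31) and ITGA7 (0.221 ± 0.0613), with no overlap between neighbours. ITGA6 thus stood in the second place in GFOGER and in the fourth in IKVAV.

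In T47D cells DAG1 led, at 116 ± 7.55 RPKM in GFOGER and 116 ± 11.3 in IKVAV (SD, n = 3). RPSA (82.5 ± 5.71 and 78.7 ± 12.9), CD151 (72.2 ± 7.84 and 72.2 ± 3.65) and BCAM (60.6 ± 6.20 and 61.7 ± 6.52) came next, and the libraries of neighbours among these overlapped in both matrices. ITGB4 (31.6 ± 4.28 and 31.9 ± 3.09), ITGA6 (14.7 ± 0.978 and 15.0 ± 0.758), ITGA3 (10.2 ± 0.919 and 8.82 ± 1.14) and ITGA7 (0.441 ± 0.0809 and 0.399 ± 0.0565) followed without overlap. The order was the same in both matrices.

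**Figure D3:**
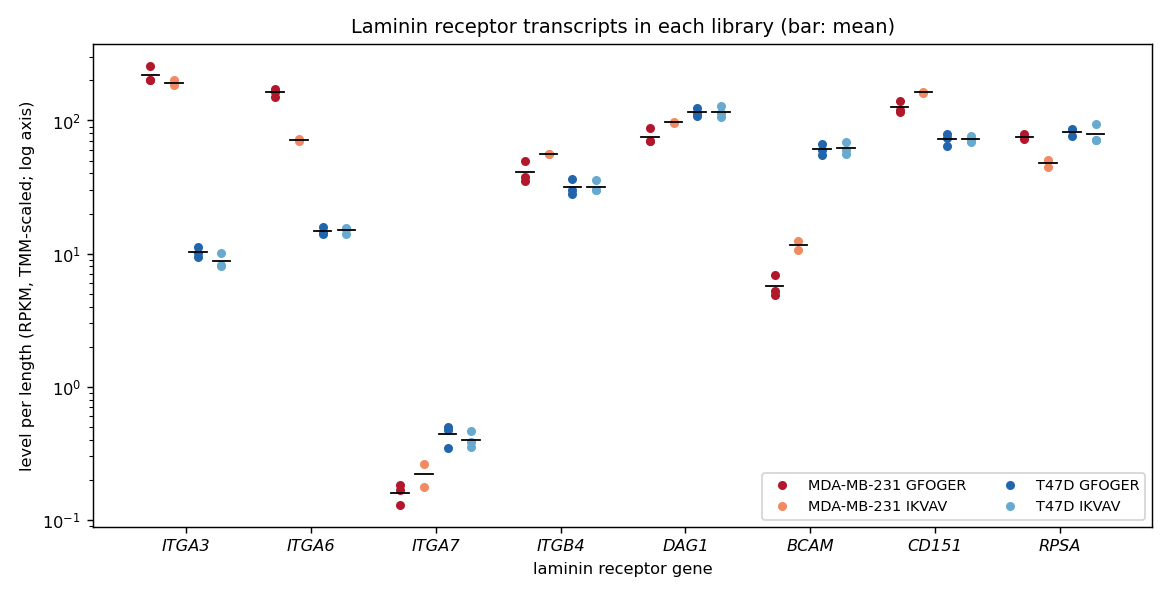
Level per length (RPKM, log axis) of each laminin receptor in each library, colored by condition, with a bar at the mean. ITGA3 and ITGA6 are higher and BCAM is lower in all MDA-MB-231 libraries than in any T47D library, and the red and orange points of ITGA6 are apart.

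Tested between the lines, 4 of 8 members were called in GFOGER, against 46.9% of all genes tested, and 4 of 8 in IKVAV, against 45.9%. By adjusted p alone, 7 of 8 passed in GFOGER (4 with more and 3 with less in MDA-MB-231 cells; background 79.5%, with 40.1% higher and 39.5% lower) and 8 of 8 in IKVAV (4 higher and 4 lower; background 77.3%, with 38.3% higher and 39% lower). ITGA3 and ITGA6 had the largest values among the members that were higher in MDA-MB-231 cells. ITGA3 was 21.6-fold higher in MDA-MB-231 cells in GFOGER (log2 4.43 ± 0.12, SE) and 21.9-fold higher in IKVAV (4.45 ± 0.12). ITGA6 was 11.1-fold higher in GFOGER (3.47 ± 0.085) and 4.76-fold higher in IKVAV (2.25 ± 0.087). Their partner ITGB1 was 5.77-fold and 5.37-fold higher, with 301, 271 and 333 cpm in GFOGER and 294, 313 and 320.2 cpm in IKVAV in T47D cells. Adjusted p-values for these 3 genes were between 2.31e-18 and 4.72e-15.

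BCAM was the receptor most enriched in T47D cells, where it was 10.7-fold higher in GFOGER (log2 of MDA-MB-231 over T47D -3.41 ± 0.13, SE; adjusted p = 2.79e-15) and 5.35-fold higher in IKVAV (-2.42 ± 0.14; adjusted p = 4.86e-12). ITGA7 was lower in MDA-MB-231 cells by 2.74-fold in GFOGER (adjusted p = 0.000470) and by 1.80-fold in IKVAV (adjusted p = 0.0407), on few counts, and the latter did not pass with the DESeq2 Wald test (adjusted p = 0.0791), with no filter (0.0633) or when any of 5 libraries was left out: MDA-MB-231 IKVAV replicate 2 (0.248), T47D GFOGER replicates 1 and 2 (0.0564 and 0.0501) or T47D IKVAV replicates 1 and 2 (0.117 and 0.0610). DAG1 was 1.53-fold lower in MDA-MB-231 cells in GFOGER (adjusted p = 5.54e-06) and 1.19-fold lower in IKVAV (adjusted p = 0.0323). The latter did not pass with the DESeq2 Wald test (0.0562), with at least 10 counts in every library (0.0634), or without MDA-MB-231 IKVAV replicate 1 (0.128) or 2 (0.130) or T47D IKVAV replicate 1 (0.162). CD151 was 1.73-fold higher in MDA-MB-231 cells in GFOGER (adjusted p = 1.46e-07) and 2.25-fold higher in IKVAV (adjusted p = 2.07e-09). ITGB4 was 1.30-fold higher (adjusted p = 0.00566) and 1.75-fold higher (adjusted p = 9.03e-06). RPSA was 1.66-fold lower in MDA-MB-231 cells in IKVAV (adjusted p = 1.77e-05), and in GFOGER its log2 fold change of -0.13 did not pass (95% interval -0.35 to 0.087); it was -0.23 and passed with upper-quartile factors (adjusted p = 0.0463) and with library size alone (adjusted p = 0.0466).

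**Figure D4:**
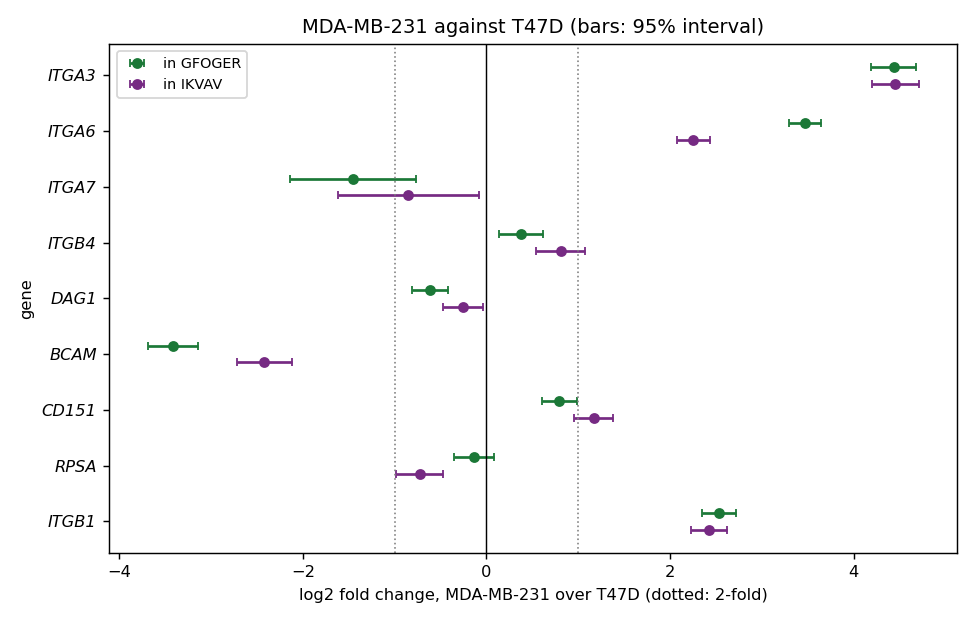
Log2 fold change of MDA-MB-231 over T47D cells (horizontal axis) for each laminin receptor and ITGB1 in GFOGER (green) and IKVAV (purple), with 95% intervals from edgeR. ITGA3 lies near 4.4 in both matrices, whereas the ITGA6 and BCAM points of the 2 matrices are apart.

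The genes that work with these receptors were then counted by list. Laminin chains, the ligands, moved both ways in MDA-MB-231 cells: of 10 tested, 3 were called higher in GFOGER (among them LAMA1 by 1.23 and LAMB3 by 1.07 on the log2 scale; background 3.12%) and 2 lower (LAMA2 -1.07 and LAMA3 -1.01; background 6.46%). LAMB3 and LAMA3 encode the β3 and α3 chains, which join in laminin-332, and the counts of these 2 genes moved in opposite directions. Counts per gene do not separate the transcript variants of a gene. Levels were 766 ± 81.8 cpm and 364 ± 4.93 cpm for LAMB3 and 101 ± 0.968 cpm and 203 ± 7.42 cpm for LAMA3 in GFOGER (SD, n = 3) and IKVAV (SD, n = 2). LAMA5, whose chain is a ligand of BCAM, was also lower in GFOGER at 364 ± 57.5 cpm against 699.7 ± 7.67 cpm (log2 fold change -0.95, adjusted p = 1.67e-06); it was within 2-fold and is named after its values were seen.

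**Figure D5:**
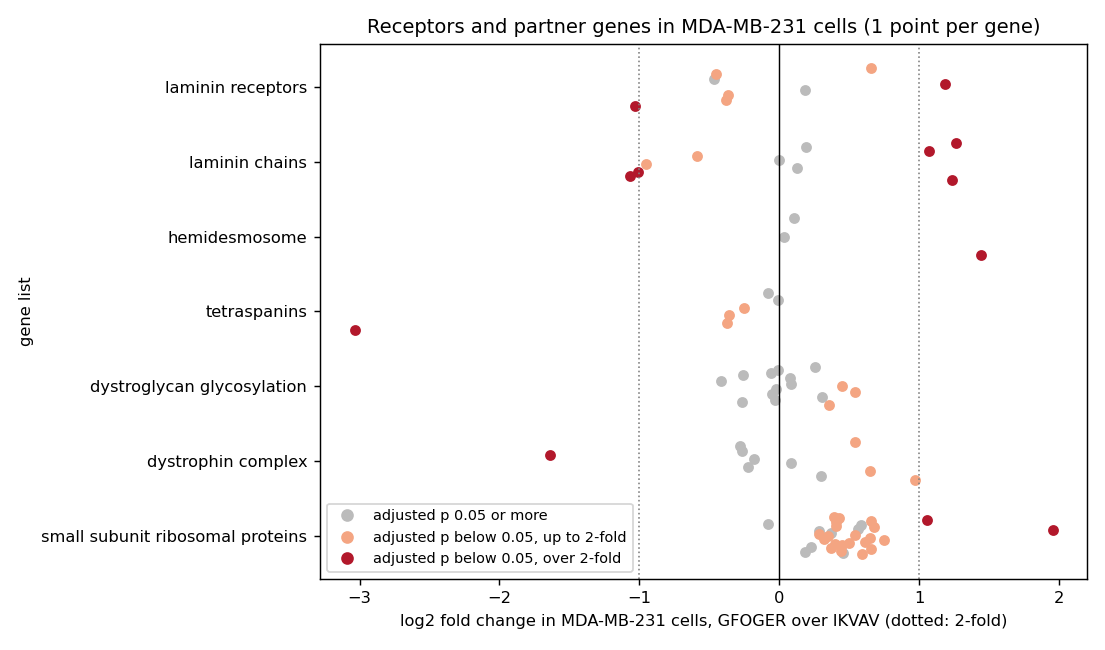
Log2 fold change of GFOGER over IKVAV in MDA-MB-231 cells (horizontal axis) for each tested gene of the receptor list and 6 partner lists, 1 point per gene. Colors give the adjusted p and the 2-fold limit: laminin chains lie on both sides of 0, and 22 of 30 small subunit ribosomal protein genes passed on the right side.

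The counts for the next 4 lists in MDA-MB-231 cells are read against the same backgrounds, 3.12% called higher and 6.46% called lower, and 21.4% higher and 21.4% lower by adjusted p alone. Of 3 hemidesmosome genes tested, COL17A1, the collagen XVII of hemidesmosomes, was called higher in GFOGER (1.44), at 52.0 ± 6.14 cpm against 19.1 ± 2.92 cpm. The plakin genes PLEC and DST did not pass. Of 6 other tetraspanins, CD37 was called lower in GFOGER (-3.03) at a low level of 0.505 ± 0.264 cpm against 4.20 ± 1.67 cpm, and CD63, CD81 and CD82, named after their values were seen, were lower within 2-fold (-0.38, -0.36 and -0.26), as CD151 was. Of 10 genes of the dystrophin complex, which links dystroglycan to actin, SNTB1 was called lower in GFOGER (-1.64), at 19.0 ± 2.85 cpm against 58.9 ± 0.0914 cpm. By adjusted p alone 3 others of this list were higher in GFOGER, within 2-fold, and no other was lower. The 3 were DMD (0.97), DTNB (0.65) and UTRN (0.54), named after their values were seen. Of 15 genes that build or process the laminin-binding sugar chain of dystroglycan, none was called, and 3 passed within 2-fold, all higher in GFOGER, a share near the background (among them DPM3 and B3GALNT2, named after their values were seen). In T47D cells no gene of any of the 6 lists passed by the adjusted p of edgeR, of 7 laminin chains, 6 tetraspanins, 2 hemidesmosome genes, 17 sugar chain genes, 10 dystrophin complex genes and 30 ribosomal protein genes tested.

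Between the lines, 6 of 10 laminin chains were called higher in MDA-MB-231 cells in GFOGER and 7 of 10 in IKVAV (background 23.7% and 23.6%), and none was called lower. LAMB2 (-0.41) and LAMA5 (-0.41), named after their values were seen, were lower within 2-fold in GFOGER. LAMB3 was higher by 6.87 and 5.64 on the log2 scale in GFOGER and IKVAV. LAMA1 had 126 to 141 counts in MDA-MB-231 cells in GFOGER and 0 in all 3 T47D libraries there, at least 132-fold higher by a floor of 3 counts over the group. All 3 hemidesmosome genes tested were called higher in MDA-MB-231 cells in both matrices, COL17A1 by 7.34 and 5.01, DST by 2.53 and 2.28 and PLEC by 1.53 and 1.31. COL17A1 did not pass the filter on low counts in the fit of T47D cells alone. Its fold changes between the lines thus rest on a low level in T47D cells.

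Of 17 genes of the dystroglycan sugar chain, 3 were called lower in MDA-MB-231 cells in each matrix, below the background of 23.2% in GFOGER and 22.3% in IKVAV, and 1 was called higher in GFOGER and 2 in IKVAV (background 23.7% and 23.6%). LARGE and its paralog GYLTL1B, the glycosyltransferases that add the laminin-binding repeat, were called lower in MDA-MB-231 cells in both matrices, although DAG1 itself was within 2-fold. LARGE measured 55.2 ± 4.05 cpm and 49.0 ± 4.93 cpm in T47D cells in GFOGER and IKVAV (SD, n = 3), whereas it had 2 to 9 counts per library in MDA-MB-231 cells. GYLTL1B measured 90.9 ± 7.88 cpm and 80.6 ± 3.16 cpm in T47D cells and had 1 to 6 counts per library in MDA-MB-231 cells. In the dystrophin complex SGCB was higher in MDA-MB-231 cells by 2.52 and 2.54 on the log2 scale and SNTB1 by 1.11 and 2.58, and DTNB was lower (-1.76 and -2.18).

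Genes with a pattern like that of each receptor were sought over the 4 condition means of log2 cpm, each gene centred on its own mean, as a Euclidean distance among 11144 genes or more. The 3 nearest to ITGA6 were B4GALT6 (distance 0.156), DOCK9 (0.203) and E2F7 (0.288), and only 30 genes lay within 0.5 of it. ITGA3 was nearest to CCDC69 (0.155), SAMD9L (0.182) and SPRY2 (0.189), with 42 genes within 0.5, and BCAM to SHANK2 (0.0775), SEMA4G (0.166) and FOLR1 (0.171), with 48. These 3 receptors also had the largest differences between the lines among the members. The distance was not scaled to the size of a gene's differences, so few neighbours do not show that a pattern is unusual. The other receptors had many near neighbours, from 1143 genes within 0.5 for ITGA7, which had few counts, to 2207 for DAG1. For these the nearest were SIPA1L1, ABL1 and WSB1 for ITGB4, TUBGCP6, POLM and ZNF710 for DAG1, LMTK2, ZNF526 and SLC4A2 for CD151, PTTG1, HAUS2 and PWP2 for RPSA and KIAA1984, ATP6AP1 and KBTBD6 for ITGA7, all within 0.0537.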

How the data were processed

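The authors aligned reads to hg19 and counted them on genes. Per the submitters' processing notes the tools were FastQC, Trim Galore 0.4.4, TopHat2 2.1.0, bedtools 2.17, SAMtools 1.4, HTSeq 0.6.1p1 and edgeR 3.16.5; which gene annotation and which strand setting HTSeq used is not given in the sources used here. The deposited table holds raw read counts and RPKM values per gene and library for 11 libraries. RPKM values deposited by the authors were used only for the library totals they imply, which fell into a smaller set (MDA-MB-231 IKVAV 1, T47D GFOGER 1 to 3 and T47D IKVAV 3) and a larger one; the RPKM values in the text were computed from the counts. Of 24656 entries, 1288 repeats of a symbol were left out. All per-sample columns belong to a described sample.

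Counts were analysed with edgeR 4.0.16 in R 4.3.3 (filterByExpr, TMM scaling, glmQLFit and glmQLFTest, Benjamini-Hochberg over all genes tested). Matrices were compared within each cell line (biological coefficient of variation 0.0933 and 0.0975), and lines and the interaction in 1 fit of the 4 conditions (0.0961). Levels are TMM-scaled cpm, and log2 cpm used a prior count of 2. All tests are two-sided. On simulated counts with 200 genes changed by 1.5 on the log2 scale, all 200 were recovered in the 2 matrix comparisons and in the comparison of lines in GFOGER, with 3, 2 and 3 false calls. The changed genes were drawn from those with higher counts, which leaves out genes as low as ITGA7. The change of 1.5 is larger than any member's difference between matrices, so recovery of smaller changes was not tested. Same-numbered replicates did not deviate together (correlations of -0.0580 to 0.0181), so numbers were not treated as pairs. Alternatives were other scalings, filters, DESeq2 1.42.0, a replicate block, a term for the implied totals and leaving out each library.

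Members and gene lists were chosen with earlier results of these data known. All 8 members and ITGB1 are named in each comparison, and from each of 6 partner lists at most the 3 called genes with the largest change, unless marked otherwise; the values of some genes in these lists are not reported here. Promoters were matched to hg19 by exact sequence. MDA-MB-231 IKVAV replicate 3, which the labels give as omitted, was not analysed here.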

Additional observations from a re-analysis of the deposited data

Results flagged for a closer look

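For 3 laminin receptors the log2 fold change of GFOGER over IKVAV differed between MDA-MB-231 and T47D cells by the interaction test of edgeR (adjusted p over 15310 genes). The difference, MDA-MB-231 minus T47D, was 1.22 for ITGA6 (adjusted p = 7.71e-07), where all 3 GFOGER libraries lay above both IKVAV libraries in MDA-MB-231 cells and the groups overlapped in T47D cells. It was -0.99 for BCAM (adjusted p = 0.000732), with the GFOGER libraries below in MDA-MB-231 cells and overlap in T47D cells. It was 0.60 for RPSA (adjusted p = 0.0110), with the GFOGER libraries above in MDA-MB-231 cells and overlap in T47D cells. RPSA was not alone among ribosomal genes in this. Of 30 other small subunit ribosomal protein genes tested, 19 passed the interaction test with a higher value and 0 with a lower one. The backgrounds were 10.9% and 10.2%, and the median of the 30 genes was 0.49. Their part in the RPSA value was not tested.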

How the results depend on the processing

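The direction of each of the 6 receptor differences that passed in MDA-MB-231 cells was the same under every alternative run. Among genes called, adjusted p alone gave 6037 in place of 1349 in MDA-MB-231 cells, 6 in place of 3 in T47D cells, 12178 and 11830 in place of 7176 and 7027 between the lines in GFOGER and IKVAV, and 3224 in place of 984 for the interaction. It gave 6, 7, 8 and 3 members in place of 2, 4, 4 and 1, T47D cells having 0 throughout. In T47D cells 6 genes were called by DESeq2, 20 with no filter, 5 with the replicate block, 49 with a term for the implied totals, 5 with all 4 conditions in 1 fit and 0 to 94 when 1 library was left out. At least 10 counts in every library, which tests fewer genes, left 4212 and 4162 genes between the lines. For the interaction 2 members were called with DESeq2 size factors, upper-quartile factors, library size, the DESeq2 Wald test, no filter, 10 counts or the implied-total term, and 5 and 6 passed by adjusted p with library size and no filter, in place of 3. When 1 library was left out, members called ranged from 1 to 2 in MDA-MB-231 cells and for the interaction, and members passing from 3 to 6 and from 2 to 6. Directions that reversed belonged to differences near 0. In T47D cells these were DAG1 at 0.0056 and CD151 at 0.0079 with library size, 0.0052 and 0.0053 with no filter, DAG1 at 0.0015 with the replicate block, and ITGB4 at 0.070, DAG1 at 0.14, BCAM at 0.11 and RPSA at -0.18 with the implied-total term, which also gave RPSA 0.17 between the lines in GFOGER. Leaving out 1 library gave ranges in T47D cells of -0.085 to 0.0074 for ITGA6, -0.13 to 0.071 for ITGB4, -0.064 to 0.077 for DAG1, -0.11 to 0.061 for BCAM, -0.077 to 0.078 for CD151, -0.0024 to 0.21 for RPSA and -0.11 to 0.034 for ITGB1, and of -0.15 to 0.054 for ITGA3 in the interaction. The replicate block gave ITGB1 0.14 in MDA-MB-231 cells (adjusted p = 9.22e-05) and DAG1 an adjusted p of 0.0604 between the lines in IKVAV; the numbers do not pair the libraries. The implied-total term gave log2 fold changes of -0.35 for DAG1 and -0.38 for CD151 in MDA-MB-231 cells. Between the lines in GFOGER it gave ITGB4 an adjusted p of 0.124. Within 1 cell line this term leaves 1 IKVAV library to compare with GFOGER, replicate 2 in MDA-MB-231 cells and replicate 3 in T47D cells. The causes were not tested. With 2 MDA-MB-231 IKVAV libraries, small differences rest on few samples, and 10 to 37 counts limit ITGA7.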
